A study of Rattus norvegicus with 36 samples.

Results

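The change within trained muscle was measured as the difference between soleus muscle of rats that had walked for 5 training days (SCI14d + TM) and soleus muscle of rats that had done 3 training sessions (SCI8d + TM). Each of these groups had 6 rats with 1 array per rat, so 12 of the 36 arrays of the series carry the comparison. The rats were adult female Sprague Dawley rats, 16 weeks old at the start, and had a spinal cord contusion of moderate severity at T8, made by dropping a weight of 10 g from 25 mm, except the controls. Training began on day 7 after the injury on a treadmill in sessions of 20 min, with manual body weight support where needed. The SCI8d + TM rats had 2 sessions on day 7 and 1 on day 8, and the SCI14d + TM rats trained 2 times a day. The left soleus was taken 8 h after the last session. The untrained groups SCI8d and SCI14d (6 rats each) had the same injury and no training, and uninjured controls (CTR, 6 rats) had neither. The 2 trained groups differ in the day after injury as well as in the amount of training, so these cannot be told apart from the trained arrays alone, and the untrained change from SCI8d to SCI14d is set beside the trained change. No animal was sampled more than 1 time, so every change is between different rats.

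The soleus is a slow postural muscle that burns mainly fatty acids. Fatty acids enter the fiber through transporters, are carried to the mitochondria by binding proteins and carnitine carriers, and are broken down by beta oxidation to feed the citrate cycle and the respiratory chain. Paralysis and unloading are known to lower this oxidative machinery in slow muscle, and endurance training is known to raise it. Markers of slow fibers, taken after the values were seen to check the tissue, were bright on all trained arrays. The signal of Myh7, the slow myosin heavy chain, was 49950 to 70950 in SCI8d + TM and 50750 to 62790 in SCI14d + TM.

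In limma, 99 of 31042 probe sets were higher in SCI14d + TM than in SCI8d + TM (0.319%) and 80 were lower (0.258%) at an adjusted p under 0.05 (Benjamini-Hochberg), the threshold for a call below. The called probe sets with 1 gene symbol represent 80 higher and 52 lower genes, and 35 called probe sets have no symbol. With 1 probe set standing for each of 14217 genes, 75 genes were higher (0.528%) and 34 lower (0.239%). Of all genes, 52.4% had positive values in the trained change (median 0.02) and 59.5% in the untrained change (median 0.07). In the difference, the trained minus the untrained change, 45.7% were positive (median -0.04). At an unadjusted p under 0.05 in limma, 380 of the 14217 genes had a higher and 431 a lower difference. These are the shares and counts to set beside the counts of the lists below. The median log2 fold change over all probe sets was -0.02. The direction of the calls depended on the scaling. As deposited, 55.3% of the called probe sets were higher. The share was 76.1% after centring each array on its median and 85.2% after scaling to Gapdh. Scaling to Gapdh moved the median of all probe sets to 0.11 in the trained and from 0.045 to 0.326 in the untrained change. Both scalings add the same amount to every value of a change. The shifts of lists with scaling to Gapdh given below are therefore this general shift and not particular to a list. In the untrained muscle, 0 probe sets were called between the same days (0%), with 2717 at an unadjusted p under 0.05 where 1552 are expected. For the trained change that number was 4542. The difference of the 2 changes gave 0 calls as well (0%), and 1659 probe sets (5.34%) had an unadjusted p under 0.05.

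Nearly all called probe sets moved less in untrained muscle. Of the 179, 157 (87.7%) had the same sign in the untrained change, against 60.9% over all probe sets, and the untrained change was smaller in 177. Their median size was 0.93 on the log2 scale in trained muscle and 0.33 in untrained muscle. As they were chosen by the trained change, larger trained values are favored, and this says nothing on its own about an effect of training. The trained groups of 6 arrays did not overlap in 109 of the 179 (60.9%), against 534 of all probe sets (1.72%). As the calls were made on these same arrays, a higher share is built in and adds no evidence. The untrained groups did not overlap in 4 of the 179 (2.23%), against 100 of all probe sets (0.322%).

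**Figure D1:**
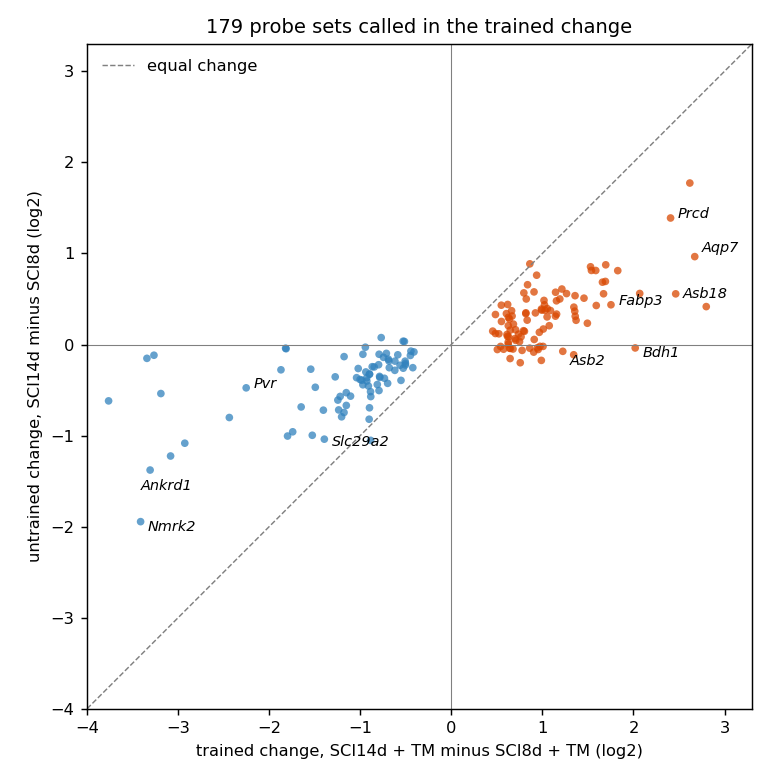
Log2 change from day 8 to day 14 of the 179 probe sets called in the trained change, with the trained change on the x axis and the untrained change on the y axis. Points higher (99) and lower (80) in SCI14d + TM lie mostly between the horizontal line and the dashed line of equal change, since the untrained change had the same sign in 157 and was smaller in 177.

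Fabp3 and Cd36, genes of fatty acid uptake, rose from SCI8d + TM to SCI14d + TM. Fabp3, the heart and muscle protein that carries fatty acids through the cytosol, had signals of 5961 to 26230 (median 8423) in SCI8d + TM and of 28750 to 41460 (median 32670) in SCI14d + TM. The groups did not overlap, and the highest SCI8d + TM array was well above the other 5. The log2 fold change was 1.75 (SE 0.37, adjusted p = 0.0209) in trained muscle and 0.44 in untrained muscle, and controls had a median of 44420. Cd36, a membrane transporter of fatty acids, had a median of 8229 (5632 to 11940) in SCI8d + TM and of 18970 (11540 to 22180) in SCI14d + TM, which is 1.09 on the log2 scale (adjusted p = 0.0421, untrained 0.37). Lpl, the lipase that frees fatty acids from blood lipoproteins, did not pass the test. Its log2 fold change was 0.87 (adjusted p = 0.102) in trained and -0.10 in untrained muscle. Of the 16 genes of fatty acid uptake and storage, 13 had positive values and 2 were called higher (0.528% of all genes were). Their median was 0.73 against 0.02 over all genes, and the untrained median was 0.49. Angptl4, which inhibits Lpl, and Ucp3, a mitochondrial carrier induced by fatty acids, both picked after their values were seen, had values of 1.83 and 1.49 without a call, and 2.22 and 1.48 in untrained muscle.

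**Figure D2:**
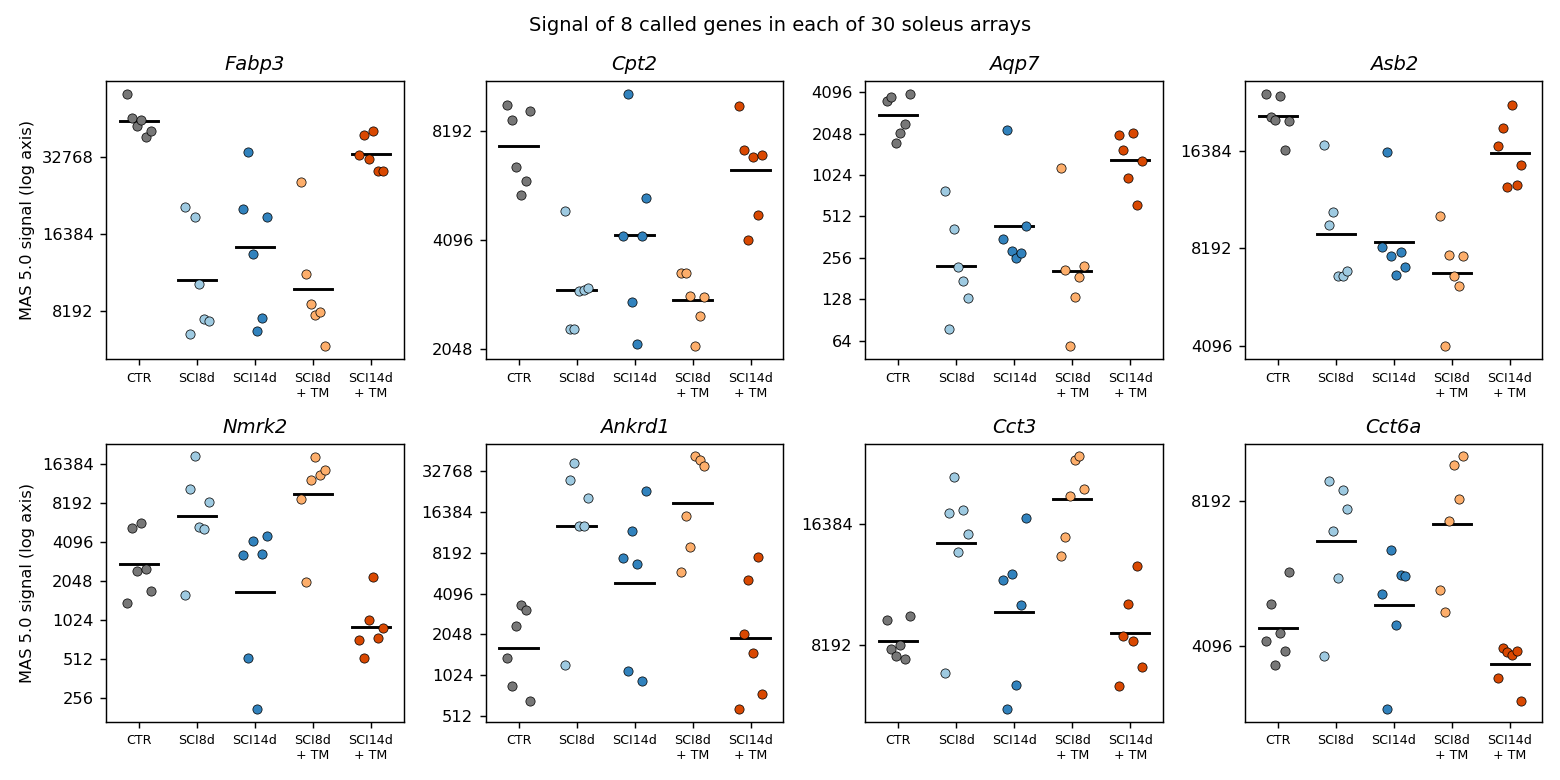
Microarray Suite signal on a log axis for 8 called genes, with 1 point per array in CTR, SCI8d, SCI14d, SCI8d + TM and SCI14d + TM (6 arrays each) and a bar at the mean of the log2 signals. Fabp3, Cpt2, Aqp7 and Asb2 are higher and Nmrk2, Ankrd1, Cct3 and Cct6a lower in SCI14d + TM than in SCI8d + TM.

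All 21 measured genes of fatty acid oxidation had positive values, with a median log2 fold change of 0.79 and a range of 0.41 to 1.35. Of these, 5 were called higher (0.528% of all genes were), and 20 had an unadjusted p under 0.05 (9.76% of all genes were higher at that p). They cover the steps of the pathway. Acsl1, which activates fatty acids with coenzyme A, had a median signal of 7477 (7321 to 14210) in SCI8d + TM and of 18200 (12610 to 21140) in SCI14d + TM (1.02 on the log2 scale, adjusted p = 0.0404, untrained 0.44). Cpt2, the inner carnitine acyltransferase of the mitochondrion, had signals of 2088 to 3340 (median 2867) in SCI8d + TM and of 4113 to 9648 (median 7013) in SCI14d + TM. Its groups did not overlap (log2 fold change 1.19, SE 0.28, adjusted p = 0.0402), and the untrained change was 0.50. Echs1, the second enzyme of beta oxidation, and Eci1, which prepares unsaturated fatty acids for it, had values of 1.05 (adjusted p = 0.0398) and 1.35 (adjusted p = 0.0402), against 0.39 and 0.41 in untrained muscle. A second probe set of Eci1 went the other way (-1.15, adjusted p = 0.569). Acads, the short chain dehydrogenase, is outside the naming rule as the fifth of the called genes and was called at 0.99 (adjusted p = 0.0492, untrained 0.39).

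In untrained muscle, 20 of the 21 genes were positive with a median of 0.36 and no call. The difference of the changes was positive in all 21, with a median of 0.52, of which 3 had an unadjusted p under 0.05 and none was called. It was positive in 20 of 21 with scaling to Gapdh. Relative to the control mean, the mean log2 level of the 21 genes was -1.56 to -0.55 in SCI8d + TM and -1.04 to 0.03 in SCI14d + TM. It was -1.44 to -0.34 in SCI8d and -1.40 to 0.14 in SCI14d, so the untrained range on day 14 spans the trained one. The group means were -1.24 in SCI8d + TM, -0.41 in SCI14d + TM, -1.11 in SCI8d and -0.79 in SCI14d. SCI8d + TM replicate 1 was the highest of its group at -0.55, and the other 5 arrays were at -1.28 or lower. All 21 trained values also stayed positive when the arrays were quantile normalized. Median centring and Gapdh scaling could not change their sign, since each raises every trained value by a fixed amount. The median of all probe sets in the trained change moved from -0.02 to 0.048 and to 0.11, and the lowest of the 21 values was already 0.41. The calls were less stable. None of the 21 genes was called without any 1 of 9 of the 12 trained arrays, and 11 were called without SCI8d + TM replicate 1, while the median stayed between 0.72 and 0.94. None was called without 3 arrays whose GAPDH 3' to 5' ratio was above 1.3, and the difference was then positive in 19 of 21.

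**Figure D3:**
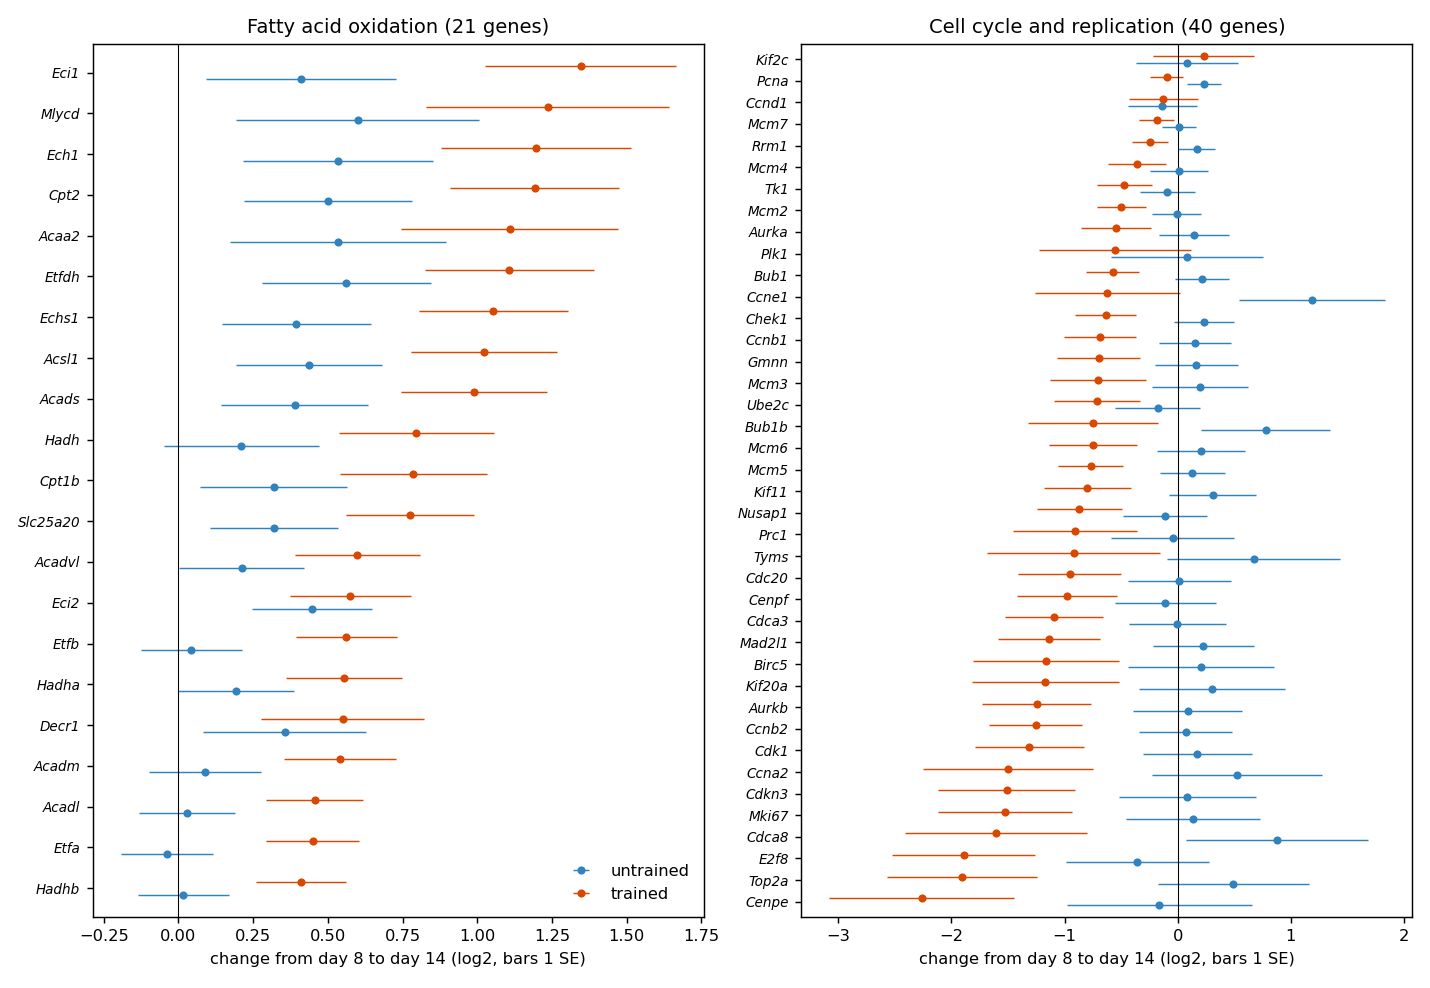
Log2 change from day 8 to day 14 (points, bars 1 SE) in trained (orange) and untrained (blue) muscle for 21 genes of fatty acid oxidation and 40 genes of the cell cycle. In the left panel all 21 trained values lie to the right of 0 and of the untrained value of the same gene. In the right panel 39 of 40 trained values lie to the left of 0.

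Enzymes that burn ketone bodies and branched-chain amino acids had positive values in 20 of 20 genes, with a median of 0.68 in trained muscle and 0.21 in untrained muscle, and 17 had an unadjusted p under 0.05. Mccc2, a subunit of the carboxylase of leucine breakdown, was called (log2 fold change 0.82, adjusted p = 0.035, untrained 0.34). Its signals were 2439 to 3869 (median 3185) in SCI8d + TM and 3855 to 7653 (median 6031) in SCI14d + TM, with an overlap of the groups by a narrow margin. Bdh1, which interconverts the 2 main ketone bodies, rose from a median of 105.6 (30.43 to 260.1) to 352.8 (278.2 to 1350) without overlap. This was 2.02 on the log2 scale (adjusted p = 0.033), against -0.04 in untrained muscle. The second and brighter probe set of Bdh1 had 1.29 (adjusted p = 0.129). Bdh2, a cytosolic relative, rose by 1.54 (adjusted p = 0.00979, untrained 0.81), and Acss1, the mitochondrial enzyme that activates acetate, rose by 1.67 (adjusted p = 0.0404, untrained 0.56). Oxct1, the enzyme that starts ketone use in muscle and was picked after its values were seen, had 0.91 (adjusted p = 0.111, untrained 0.01).

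The respiratory chain shared the direction with smaller values. In complex I, 29 of 31 genes were positive with a median of 0.29 and 17 at an unadjusted p under 0.05, and none was called. Ndufs8, a core subunit, was the nearest to a call (0.63, adjusted p = 0.0583, untrained 0.15). In complexes II to V, 29 of 32 genes were positive (median 0.19), and in the citrate cycle 13 of 15 (median 0.31), with no call in either. The untrained medians of these 3 lists were 0.00, -0.04 and 0.08, and scaling to Gapdh moved them to 0.28, 0.24 and 0.36. Coa3, an assembly factor of cytochrome c oxidase chosen after its values were seen, was called (0.74, adjusted p = 0.0134, untrained 0.11). Among 19 regulators of the PGC-1, ERR and PPAR families, 14 had positive values and none was called. Perm1, a muscle regulator of this program, had 1.39 (adjusted p = 0.0978) in trained and -0.21 in untrained muscle (unadjusted p = 0.00902 for the difference).

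The largest named falls were in Nmrk2 and Ankrd1. Nmrk2, a muscle kinase that makes a precursor of NAD, had signals of 1995 to 18510 (median 12910) in SCI8d + TM and of 521.6 to 2179 (median 810.2) in SCI14d + TM. The groups overlapped through 1 array, the lowest of SCI8d + TM, whose other 5 arrays were at 8711 or higher. The log2 fold change was -3.41 (SE 0.64, adjusted p = 0.0129) in trained muscle and -1.94 in untrained muscle, and the median in controls was 2475. Ankrd1, a titin-binding protein induced by stretch and injury, fell from a median of 25360 (5925 to 42110) to 1778 (575.4 to 7577), which is -3.31 on the log2 scale (SE 0.78, adjusted p = 0.0386), and its other probe set was called at -3.08. The groups overlapped and the untrained change was -1.38. The list of stretch and sarcomere stress genes that holds Ankrd1 had smaller values (16 of 19 negative, median -0.22, 1 called), and the untrained median was -0.48.

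Pvr and the transporters Slc22a4 and Slc29a2 fell as well. Pvr, a cell adhesion receptor, had a log2 fold change of -2.25 (adjusted p = 0.0402, untrained -0.48). Slc22a4, a transporter of organic cations, fell from a median of 1084 (726.5 to 1671) to 359.1 (205.9 to 502.4) without overlap (log2 fold change -1.65, adjusted p = 0.0158, untrained -0.69). Slc29a2, a nucleoside transporter, had -1.39 (adjusted p = 0.0109) and -1.04 in untrained muscle, and both of its probe sets were called. Further named falls were Olfm1 (-1.54), Herc1 (-1.53), Fkbp5 (-1.49), Cd99l2 (-1.25), Eprs1 (-1.24), Tmem38b (-1.20), Eny2 (-1.15) and LOC100912031 (-1.04), with adjusted p of 0.00979 to 0.0402. Their untrained changes were -0.27, -0.997, -0.47, -0.61, -0.72, -0.79, -0.67 and -0.36 in the same order. The other probe sets of Olfm1, Fkbp5, Cd99l2, Eprs1, Tmem38b, Eny2 and LOC100912031 did not pass the test, although all were negative.

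Cct3, Cct6a and Cct7, subunits of the chaperonin CCT, the ring that folds tubulin and actin, fell, as did 1 tubulin. The CCT list was added after the values were seen, so its count is a description. Of 15 genes of CCT, prefoldin and their partners, 14 had negative values and 5 were called lower (0.239% of all genes were). Their median was -0.45, and the untrained median was -0.27, which scaling to Gapdh moved to 0.01. Cct3 had signals of 13630 to 24120 (median 19620) in SCI8d + TM and of 6483 to 12890 (median 8529) in SCI14d + TM. The groups did not overlap (log2 fold change -1.11, SE 0.23, adjusted p = 0.0178, untrained -0.57), and controls were at 7566 to 9658. Cct6a and Cct7, also chosen after their values were seen, were called at -0.97 (adjusted p = 0.0158) and -0.50 (adjusted p = 0.0158), without overlap of the groups and with untrained changes of -0.44 and -0.21, while another probe set of Cct6a had -0.59 (adjusted p = 0.157). Tubb4b, a beta tubulin that CCT folds, fell from a median of 18640 (14500 to 23850) to 8006 (5330 to 13320) without overlap (log2 fold change -1.18, adjusted p = 0.042, untrained -0.75). Tubb5 and Tubb6, further beta tubulins, had -1.19 (adjusted p = 0.0886) and -1.99 (adjusted p = 0.124), against -0.42 and -0.33 in untrained muscle. The number of called CCT and prefoldin genes was 1 with scaling to Gapdh and 2 with median centring, and none was called without SCI8d + TM replicate 4 or replicate 6.

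Promoters of these and of cell cycle genes are printed to show the letters CCAAT in Cct3, Tubb4b and Ccnb2 and the E2F letters in Mcm5. The stretch of 250 bases before to 50 after the transcription start was taken from RefSeq (build GRCr8) for 27457 genes and searched on both strands. CCAAT, the letters bound by the factor NF-Y, was in 37.7% of all promoters, in 53.3% of the 15 CCT and prefoldin promoters, in 66.7% of 21 heat shock and chaperone promoters and in 70.6% of 34 cell cycle promoters. Lists with positive medians also had shares above that of all promoters, such as 55.6% for ketone and branched-chain amino acid oxidation, 57.1% for the citrate cycle and 62.5% for ubiquitin ligases, so the share of the CCT list is not particular to it. The E2F letters TTTCCCGC or TTTGGCGC were in 1.53% of all promoters, in 20.6% of the cell cycle promoters and in 0 of the 15 CCT and prefoldin promoters. Among genes called lower, 23 of 46 promoters (50%) held CCAAT, and among genes called higher 29 of 71 (40.8%). The estrogen-related receptor half-site AAGGTCA was in 4.37% of all promoters, in 6.25% of the fatty acid oxidation promoters (a promoter was found for 16 of the 21 genes) and in 24.1% of the promoters of complexes II to V. These shares were not tested, and a match is only a match of letters. In the promoters below, written 5′ to 3′ on the strand of the gene, capitals mark CCAAT or its reverse complement ATTGG in Cct3, Tubb4b and Ccnb2 and the E2F letters, on either strand, in Mcm5.
Cct3, chr2:176063279-176063578, plus strand: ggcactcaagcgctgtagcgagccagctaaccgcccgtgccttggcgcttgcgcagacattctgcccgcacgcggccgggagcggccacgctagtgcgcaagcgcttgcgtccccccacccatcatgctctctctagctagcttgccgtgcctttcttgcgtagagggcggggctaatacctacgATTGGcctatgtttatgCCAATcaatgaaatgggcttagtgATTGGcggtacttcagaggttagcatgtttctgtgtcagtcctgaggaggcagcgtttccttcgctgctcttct
Tubb4b, chr3:28438406-28438705, minus strand: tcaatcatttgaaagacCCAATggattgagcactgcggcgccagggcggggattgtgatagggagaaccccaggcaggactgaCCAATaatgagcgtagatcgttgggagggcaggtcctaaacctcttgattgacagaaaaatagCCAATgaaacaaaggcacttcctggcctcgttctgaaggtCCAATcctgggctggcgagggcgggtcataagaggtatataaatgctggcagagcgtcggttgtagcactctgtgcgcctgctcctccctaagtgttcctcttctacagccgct
Ccnb2, chr8:79981609-79981908, minus strand: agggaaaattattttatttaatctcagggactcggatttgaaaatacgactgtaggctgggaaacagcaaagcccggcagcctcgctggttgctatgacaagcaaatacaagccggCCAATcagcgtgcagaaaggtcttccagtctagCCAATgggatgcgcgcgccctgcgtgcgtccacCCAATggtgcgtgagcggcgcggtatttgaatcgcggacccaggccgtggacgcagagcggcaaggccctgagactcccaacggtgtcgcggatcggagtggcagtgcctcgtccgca
Mcm5, chr19:13488563-13488862, plus strand: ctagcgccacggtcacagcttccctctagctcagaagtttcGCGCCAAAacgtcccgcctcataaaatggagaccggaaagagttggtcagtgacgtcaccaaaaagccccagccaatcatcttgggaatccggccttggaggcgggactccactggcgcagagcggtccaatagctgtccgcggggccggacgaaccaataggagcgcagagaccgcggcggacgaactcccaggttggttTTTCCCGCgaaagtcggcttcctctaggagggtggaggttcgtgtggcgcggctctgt

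Cct3 has 3 such matches, which begin at -65, -48 and -24, and Tubb4b has 4. In Ccnb2, the cyclin that drives entry into mitosis, 3 matches begin at -134, -101 and -68 from the start. The letters in Mcm5, a subunit of the replicative helicase chosen for its promoter, begin at -209 and -8. Its trained log2 fold change was -0.77 (adjusted p = 0.186).

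Heat shock proteins and other chaperones had negative values in 26 of 26 genes, with a median of -0.39 and an untrained median of -0.14. None was called, and 9 had an unadjusted p under 0.05 (6.91% of all genes were lower at that p). The nearest to a call was Dnaja1, a partner of Hsp70 (-0.71, adjusted p = 0.0583), with -0.10 in untrained muscle. Hspb1, a small heat shock protein that binds damaged filaments, had signals of 39740 to 60920 in SCI8d + TM and of 20430 to 31100 in SCI14d + TM, which do not overlap (-0.81, adjusted p = 0.174), and -0.88 in untrained muscle. Scaling to Gapdh left 23 of the 26 negative and moved the untrained median to 0.14, where that of all probe sets was 0.326. Translation factors and cytosolic ribosomal proteins had mostly negative values in both changes. The median was -0.23 against -0.22 for 34 translation factors and tRNA synthetases, and -0.23 against -0.31 for 22 cytosolic ribosomal proteins. With scaling to Gapdh the untrained values became 0.06 and -0.03. In ribosome biogenesis, 23 of 28 genes were negative in trained muscle and 20 in untrained muscle (median -0.25 and -0.11), with 10 and 1 lower at an unadjusted p under 0.05. With scaling to Gapdh the untrained median of ribosome biogenesis was 0.17, also below the 0.326 of all probe sets. Fbl, which methylates ribosomal RNA, and Ddx21, a nucleolar helicase, had -0.73 (adjusted p = 0.0572) and -0.79 (adjusted p = 0.0688), against 0.02 and 0.06 in untrained muscle.

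Cell cycle and replication genes had negative values in 39 of 40 genes of trained muscle, with a median of -0.78. None was called, and 19 had an unadjusted p under 0.05. In untrained muscle 30 of the 40 were positive (median 0.14), against 59.5% of all genes (median 0.07). The untrained median of the 40 was -0.09 when the 3 arrays with the GAPDH ratio above 1.3 were left out. The difference of the changes was negative in 38 of 40, with a median of -0.93 and 8 genes at an unadjusted p under 0.05. Cdk1, the kinase of mitosis, chosen after its values were seen, had signals of 360.6 to 1255 (median 477.3) in SCI8d + TM and of 52.75 to 455.5 (median 292.8) in SCI14d + TM. These groups overlapped (log2 fold change -1.31, SE 0.48, adjusted p = 0.176), and the untrained change was 0.18. Ccnb2 had -1.26 (adjusted p = 0.13), and Top2a, which untangles replicated DNA, had -1.91 (adjusted p = 0.155). The control medians of Cdk1, Ccnb2 and Top2a were 55.24, 134.4 and 60.35, below the medians of SCI8d, SCI14d, SCI8d + TM and SCI14d + TM. The mean level of the list above control was 1.31 to 2.97 in SCI8d + TM, highest in replicate 2. It was -0.04 to 1.86 in SCI14d + TM, lowest in replicate 1. In untrained muscle it was 0.045 to 1.873 in SCI8d and 0.48 to 2.225 in SCI14d, so all these ranges overlap. The group means were 1.922 in SCI8d + TM, 1.028 in SCI14d + TM, 1.121 in SCI8d and 1.296 in SCI14d. The SCI8d + TM mean was thus the highest, and the SCI14d + TM mean lay within both untrained ranges. Without SCI8d + TM replicate 2 the median trained change was -0.57, as it was without SCI14d + TM replicate 1. In bulk muscle, fewer dividing cells and less RNA per cell cannot be told apart. Macrophage and monocyte markers, which could move with dividing cells, had a median change of -0.12 (17 of 24 negative, none called, and 0.01 with scaling to Gapdh). This median ran from -0.24 without SCI8d + TM replicate 3 to 0.03 without SCI8d + TM replicate 2, with 4 and 13 of 24 positive, and the mean level of the markers was 0.16 to 1.45 in SCI8d + TM and 0.08 to 1.06 in SCI14d + TM. Their part in the cell cycle values was not tested.

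**Figure D4:**
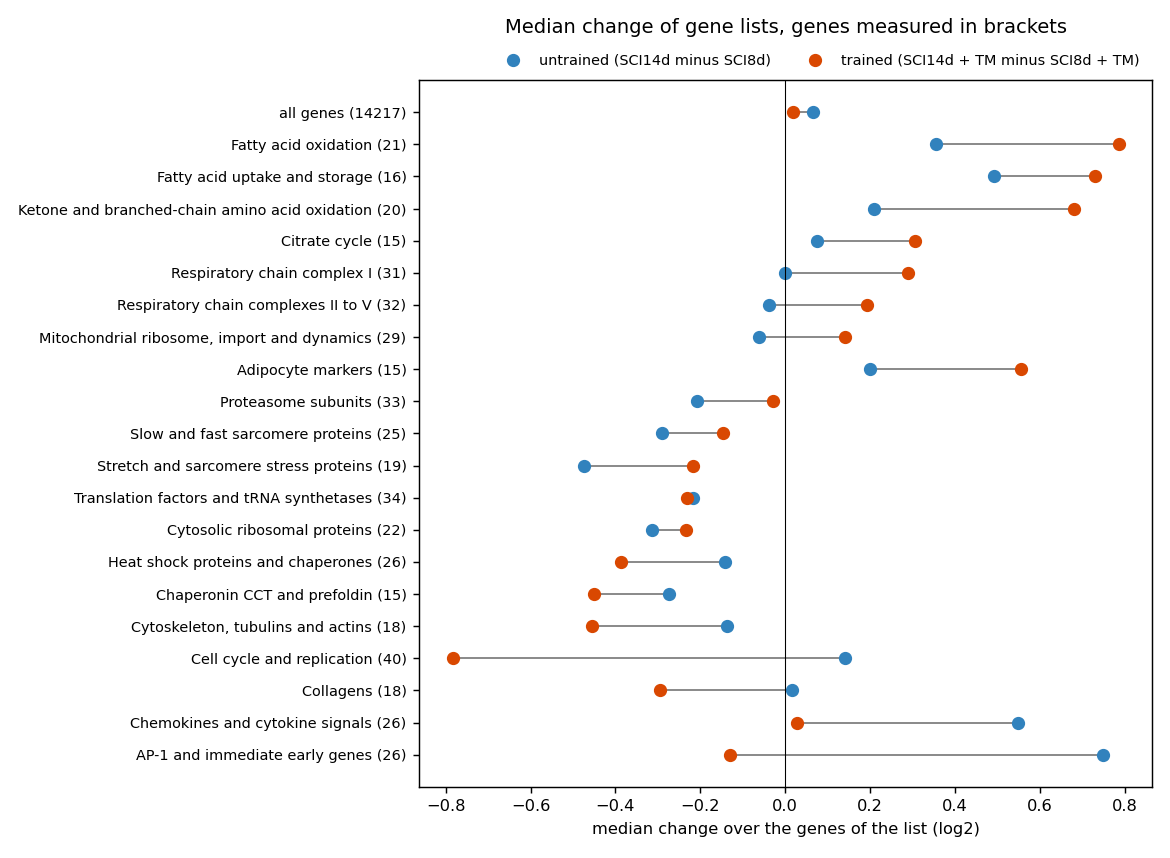
Median log2 change from day 8 to day 14 over the genes of each list and over all genes, in untrained (blue) and trained (orange) muscle, with the number of genes measured in brackets. Fatty acid oxidation (0.79 and 0.36) is farthest to the right in trained muscle, and the cell cycle list is on opposite sides of 0 (-0.78 and 0.14).

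Aqp7, the glycerol channel of fat cells that muscle also expresses, had the largest rise among the genes named by the rule. Its signal was 58.04 to 1149 (median 197.8) in SCI8d + TM and 624.4 to 2078 (median 1424) in SCI14d + TM. The log2 fold change was 2.67 (SE 0.54, adjusted p = 0.0178). Replicate 1 of SCI8d + TM, at 1149, lay among the SCI14d + TM values, and the other 5 arrays were below them. The untrained change was 0.97 and the control median 2977. Adipocyte markers were positive in 14 of 15 genes (median 0.56, untrained 0.20), and 1 was called, Aqp7. Their mean level relative to control was -1.96 to -0.57 in SCI8d + TM and -1.24 to 0.78 in SCI14d + TM, where replicates 4 and 6 were at 0.70 and 0.78 and the other 4 at -0.45 or lower. Adipoq, a hormone of fat cells chosen after its values were seen, had overlapping signals of 99.98 to 503.6 and of 162.7 to 3770 (1.01, adjusted p = 0.5), and Plin1, which coats the lipid droplet of fat cells, had 1.03 (adjusted p = 0.409). The part of fat tissue in the rise of Aqp7 and of the fatty acid genes was not tested. Mogat1, an enzyme of triglyceride synthesis with a signal too dim for the naming rule, and Srebf1, a regulator of lipid synthesis, were called at 2.80 (adjusted p = 0.0236) and 1.36 (adjusted p = 0.0274), against 0.42 and 0.31 in untrained muscle, although the other probe set of Srebf1 had 0.99 (adjusted p = 0.132).

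Several rises lay outside metabolism. Asb18 and Asb2 are muscle members of a family of ubiquitin ligase adaptors, and Asb2 is known to mark filamins for breakdown. Asb2, chosen after its values were seen, had signals of 4093 to 10300 (median 7273) in SCI8d + TM and of 12660 to 22570 (median 15850) in SCI14d + TM. The groups did not overlap (log2 fold change 1.22, SE 0.25, adjusted p = 0.0178), while the untrained change was -0.07 and the difference of the changes did not pass adjustment (unadjusted p = 0.000769, adjusted p = 0.85). Asb18 had 2.46 (adjusted p = 0.035) against 0.56 in untrained muscle. In the family, a list also added after the values were seen, 7 of 12 genes were positive, against 52.4% of all genes. Of the 12, 2 were called higher, against 0.528% of all genes. Cfi, the protease that inactivates complement, rose from a median of 529.6 (375.2 to 869.4) to 1779 (1210 to 2422) without overlap. Its log2 fold change was 1.69 (SE 0.27, adjusted p = 0.00255), and that of untrained muscle was 0.69. Cdkn1c, an inhibitor of cyclin-dependent kinases, rose from a median of 658.9 (461.9 to 727.3) to 1751 (951 to 4540). The log2 fold change was 1.70 (adjusted p = 0.0178) against 0.88 in untrained muscle. It was the only called gene of the 15 myogenic and satellite cell genes, of which 13 were negative. Prcd (2.41), Pamr1 (2.07), Tango2 (1.66), Col6a6, a chain of collagen VI (1.53), Mzb1, a gene of antibody-secreting cells (1.46), and Cacna2d3, a calcium channel subunit (1.36), completed the named rises, with adjusted p of 0.0134 to 0.0335. Their untrained changes were 1.39, 0.56, 0.68, 0.85, 0.51 and 0.54 in the same order. Trak1, an adaptor that moves mitochondria along microtubules, was chosen after its values were seen and rose by 1.02 (adjusted p = 0.00357, untrained 0.48), with groups of 898 to 1638 and 2273 to 2911.

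The named genes with the smallest p in the difference between trained and untrained change did not pass adjustment over all probe sets. Mrpl4, a protein of the mitochondrial ribosome, had signals of 2607 to 3944 in SCI8d + TM and of 4352 to 7072 in SCI14d + TM without overlap. It rose by 0.76 (adjusted p = 0.0196) in trained muscle, with -0.20 in untrained muscle, and the difference of 0.96 had an unadjusted p = 0.000135 (adjusted p = 0.698). Retreg1, a receptor for the breakdown of endoplasmic reticulum, rose by 0.78 (adjusted p = 0.0129), with -0.06 in untrained muscle (difference unadjusted p = 0.000236, adjusted p = 0.827). Ttc7b had 0.65 and -0.15, and Hrc, a calcium-binding protein of the sarcoplasmic reticulum chosen after its values were seen, had 0.65 and -0.04. Aebp2, Alpk3 and Rpe had differences of -0.97, 0.83 and -0.77 without a call in either change. The other probe sets of Aebp2, the brightest included, had differences of only -0.09, -0.01 and -0.19. The one at -0.01 went the other way in the trained change (0.16 against -0.39). The smallest p of all belonged to the probe set 1380971_at, which has no symbol and is dim, below the 40th percentile of mean signal. Its signals were 79.12 to 225.7 in SCI8d + TM and 5.401 to 15.81 in SCI14d + TM, and the lowest value of the CTR, SCI8d, SCI14d and SCI8d + TM arrays was 20.21. It was called lower in the trained change (adjusted p = 0.000123), and the difference of the changes did not pass adjustment (unadjusted p = 6.69e-06, adjusted p = 0.208). No fold is given, since the SCI14d + TM signals were not shown to be above background. Of the other called probe sets with no symbol, 1376522_at had 2.62 (untrained 1.77) and 1388985_at -1.80 (untrained -1.01).

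Some lists had unlike medians in the trained and untrained change, with no call in either. AP-1 and immediate early genes, which respond within minutes to stimuli, were positive in 24 of 26 in untrained muscle (median 0.75) and in 9 of 26 in trained muscle (median -0.13, near 0 with scaling to Gapdh). The trained median ran from -0.48 without SCI14d + TM replicate 3 to -0.004 without SCI14d + TM replicate 4, with 4 and 13 of 26 positive. Single arrays differed widely within groups. Relative to the control mean, the mean level of this list was -1.266 to 0.047 in SCI8d and -1.295 to 1.343 in SCI14d. It was -1.021 to 0.208 in SCI8d + TM, -1.457 to 0.626 in SCI14d + TM and -0.743 to 1.253 in the controls. The difference was negative in 25 of 26 (median -0.87), and 6 had an unadjusted p under 0.05. Fos, a subunit of AP-1 chosen after its values were seen, had -1.20 in trained muscle with overlapping signals of 1208 to 13340 and 271.5 to 14180, and 1.82 in untrained muscle (difference unadjusted p = 0.0223). Chemokines and cytokines had a median of 0.03 in trained and 0.55 in untrained muscle, and the trained median was -0.21 to 0.09 with 1 trained array left out. Their mean level relative to the control mean was -0.557 to -0.048 in SCI8d, -0.57 to 1.667 in SCI14d and -0.936 to 0.967 in the controls. In the trained groups it was -0.352 to 0.133 in SCI8d + TM and -0.754 to 1.092 in SCI14d + TM. Collagens were negative in 14 of 18 (median -0.30, untrained 0.02, and 0.30 untrained with scaling to Gapdh), and none was called. Without SCI14d + TM replicate 1 the trained median was -0.11 with 8 of 18 positive. Proteasome subunits were near 0 in trained muscle (median -0.03, 12 of 33 positive, 10 to 22 with 1 trained array left out, but 23 of 33 positive with median centring and 28 of 33 with scaling to Gapdh) and negative in 31 of 33 in untrained muscle (median -0.21), which turned to 8 of 33 negative with scaling to Gapdh.

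Of the 23 genes that the study's text follows by name, 1 was called, Fabp3. Of all genes, 0.528% were called higher and 0.239% lower. The muscle regulatory factor Myf6 had signals of 18960 to 21660 (median 20300) in SCI8d + TM and of 11360 to 15680 (median 13370) in SCI14d + TM, which do not overlap, and did not pass the test (log2 fold change -0.62, SE 0.16, adjusted p = 0.0601, untrained -0.25). Myog, the regulator of terminal differentiation, had -0.82 (adjusted p = 0.156). The 10 BMP, activin and Smad genes had log2 fold changes of -0.41 to 0.62, with a smallest adjusted p of 0.322. The fast myosins Myh1 and Myh4 had -0.39 (adjusted p = 0.656) and -0.96 (adjusted p = 0.76), and 22 of 25 sarcomere genes were negative (median -0.15, untrained -0.29), but 15 of 25 after quantile normalization.

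Markers of other cells in the muscle stand beside all genes, of which 0.528% were called higher, 0.239% were called lower and 52.4% were positive. Fibroblast markers were negative in 11 of 14 (median -0.27), although Pdgfrb, a receptor of fibroblasts and pericytes, was called higher (0.80, adjusted p = 0.0335, untrained 0.57). Its other probe sets had 0.37 and -0.34 without a call. Endothelium and vessel wall genes had a median of 0.19 (12 of 17 positive), interferon response genes 0.19 (20 of 24 positive) and leukocyte markers other than macrophages 0.02, with no call in any of them. With 1 trained array left out the last 2 medians ran from 0.05 to 0.31 and from -0.08 to 0.15. Erythrocyte genes were negative in 7 of 7 (median -0.42, and -0.64 to -0.10 with 1 trained array left out) and in 7 of 7 in untrained muscle.

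The number of calls depended on single rats. Without 1 trained array it ran from 27 (without SCI8d + TM replicate 4) to 519 (without SCI8d + TM replicate 1), and each of the 179 called probe sets kept its sign. Of these, 19 were called whichever trained array was left out, 9 higher and 10 lower. The other called probe sets each lost the call without at least 1 array. The 19 include Cfi, Bdh2, Mzb1, Cacna2d3, Trak1 and Retreg1 among the rises, besides Mavs (1.36), an antiviral adaptor outside the naming rule, and a probe set of Tango2 (1.37) other than the one named above, whose adjusted p was 0.0823 without SCI14d + TM replicate 1. The falls among them include Nmrk2, Slc29a2 and LOC100912031, and 8 of the 19 have no symbol. Many of the 19 kept the call narrowly. The highest adjusted p without 1 trained array was 0.049 for Nmrk2, Slc29a2, Bdh2, Mzb1, Mavs and Retreg1 and 0.0497 for Cacna2d3. It was 0.0149 for Cfi, 0.0175 for Trak1 and 0.0423 for LOC100912031. The GAPDH 3' to 5' ratio, a measure of RNA degradation, was 1.02 to 1.61 over all arrays, and 3 arrays were above 1.3, of which SCI14d + TM replicate 1 (1.33) is trained. Without these 3, 108 probe sets were called.

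**Figure D5:**
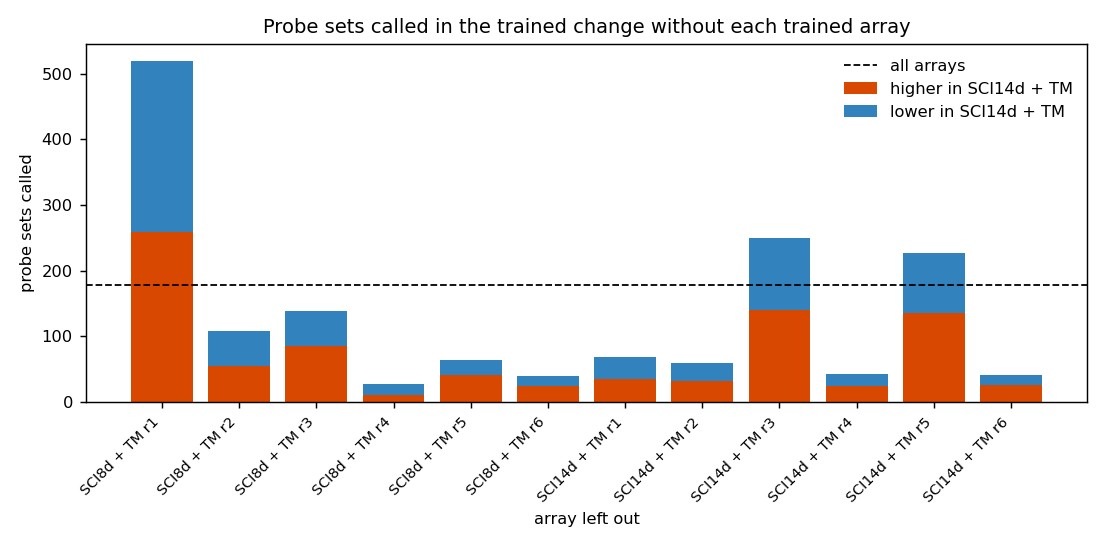
Number of probe sets called in the trained change (stacked bars, higher and lower in SCI14d + TM) when the array named on the x axis was left out. The dashed line is the 179 calls with all arrays. The lowest bar is 27 without SCI8d + TM replicate 4 and the highest 519 without SCI8d + TM replicate 1.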

How the data were processed

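Total RNA of the left soleus of each rat was hybridized to an Affymetrix rat genome array. The intensity values were deposited by the authors as linear signals made in Microarray Suite (MAS5), with each array scaled to a common trimmed mean. The table holds 31099 probe sets. The study's methods state a filter on present calls, which was not repeated here. Of the 31099, 57 control probe sets were left out, so 31042 were tested. Signals were taken to log2 with no offset and fitted in limma 3.58.1 (R 4.3.3) as means of 6 groups over all 36 arrays with 30 residual degrees of freedom and an intensity trend (eBayes). The trained change is SCI14d + TM minus SCI8d + TM, the untrained change is SCI14d minus SCI8d, and the difference is the first minus the second. These 2 changes share no array. Adjusted p are Benjamini-Hochberg values over all probe sets. Probe sets were matched to genes with the platform annotation: 20826 have 1 symbol, 436 several and 9780 none. The brightest probe set on average stood for a gene that had more than 1.

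Named genes are the 15 highest and 15 lowest called changes of probe sets with 1 symbol above the 40th percentile of mean signal, taken on the called probe set, up to 4 genes of smallest p per list, the genes named in the study's results, and the 6 genes of smallest p in the difference. Genes outside the rule are said to be so. The genes and the 42 lists were chosen with earlier results of these data known, and 3 more lists (CCT and prefoldin, splicing factors, Asb family) were added after the values were seen. Of the 29 splicing factors, 26 were negative in the trained change and 2 were called lower (0 to 4 with 1 trained array left out). Among all genes, 0.239% were called lower and 52.4% were positive. Lists are described by counts and medians only. The number of arrays limits the precision, and the detection calls were not used. The procedure was tested on simulated data. Plots were made in Python 3.11.15 with matplotlib 3.10.9.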

Additional observations from a re-analysis of the deposited data

Results flagged for a closer look

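In 180 groups of 6 trained arrays examined (genes and lists named above), 11 held an array whose distance to its nearest neighbor was larger, as a share of the range of its group, than Dixon's limit for 6 values. Chance gives about 1 in 20, or 9.0 here. In SCI8d + TM, replicate 1 was the highest for Acsl1 (ratio 0.814, 14210 against 8281 or lower), for Acads (0.802, 3041 against 1638 or lower) and for the mean of the fatty acid oxidation genes (0.716). Replicate 2 was the lowest for Nmrk2 (0.662), and replicate 5 was the lowest for Adipoq (0.695). In SCI14d + TM, replicate 1 was the lowest for Top2a (0.795, a signal of 7.201 against 155.5 to 344) and for Fkbp5 (0.665). Replicate 5 was the highest for Olfm1 (0.683), replicate 3 the highest for LOC100912031 (0.674), replicate 4 the highest for Angptl4 (0.731) and replicate 6 the lowest for the probe set 1380971_at (0.742).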

How the results depend on the processing

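With all arrays and the values as deposited, 179 probe sets were called in the trained change, 0 in the untrained change and 0 in the difference. The trained count was 301 without the dimmest 40% of probe sets, 75 without the intensity trend, 1178 with array weights, 299 in a model of the 2 groups alone, and 108 without the 3 arrays of GAPDH 3' to 5' ratio above 1.3, an alternative chosen after the data were seen. At an unadjusted p it was 4542. The methods' t-test gave 4913 unadjusted and 38 adjusted for the trained change and 2004 unadjusted for the untrained change. The untrained count was 1 without the trend, 1 with array weights, 1 without the 3 arrays and 2717 unadjusted, and the difference gave 2 with array weights, 1 without the 3 arrays and 1659 unadjusted. With 1 array left out, the trained count ran from 27 to 519, the untrained from 0 to 9 and the difference from 0 to 1. The trained count was 108, 64 and 40 without SCI8d + TM replicates 2, 5 and 6, and 69, 59, 43 and 42 without SCI14d + TM replicates 1, 2, 4 and 6. Quantile normalization (232), median centring (155), scaling to Gapdh (135, through a probe set shared by Gapdh and Gapdhl10), an offset of 32 (196), 1 probe set per gene (155), the GAPDH ratio as covariate (247) and replicates 5 and 6 as a term (213) stayed within 1.5 times the main count. The correlation over probe sets of the trained and the untrained change was 0.225, and 0.479 without the dimmest 40%. The replicate block gave 183 calls, of which 155 were shared. Deviations from the group means were correlated between SCI8d + TM and SCI14d + TM arrays. In 2 of 6 cases (replicates 1 and 5) the most correlated array had the same number. The correlations of same-numbered arrays were -0.149 to 0.339. What the replicate numbers stand for is not given, and the main fit did not treat these arrays as pairs. Of 683 gene results under the settings other than a left-out array or another probe set, 621 kept their side of the threshold, 40 lost a call, 21 gained one and 1 changed sign (Myh7, 0.011 with scaling to Gapdh, uncalled on both sides). With 1 array left out, 653 of 912 gene results kept their side, 245 lost a call, 14 gained one and 0 changed sign. The values of opposite sign on other probe sets were those of Aebp2 (0.157), Eci1 (-1.15) and Pdgfrb, a pericyte receptor (-0.34, against 0.80 and a call at the main one). A setting for arrays with a GAPDH ratio over 3 gave no value, since there were 0 such arrays. The causes of these shifts were not tested. The number of rats limits every count.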
